A study of Rattus norvegicus with 6 samples.

Results

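The genes described here are the 8 transfer RNA genes on the minus strand of the rat mitochondrial chromosome: those for glutamine (tRNA-Gln), alanine (tRNA-Ala), asparagine (tRNA-Asn), cysteine (tRNA-Cys), tyrosine (tRNA-Tyr), serine with UCN codons (tRNA-Ser(UCN)), glutamate (tRNA-Glu) and proline (tRNA-Pro). They were taken as all annotated genes on that chromosome with minus strand and a length of 75 bases or less, which gave 8 of 35 mitochondrial genes in the files and 8 of 32552 genes in all. The rule used no measured value, but the members were chosen with earlier results of these data known. RNA came from the striatum of male Sprague-Dawley rats and was poly(A) selected before sequencing. The 3 control libraries (control 1, 2 and 4) came from rats injected into the peritoneal cavity with 0.9% NaCl, and the 3 Mn-exposed libraries (Mn-exposed 13, 14 and 17) from rats injected by the same route with MnCl2 at 25 mg/kg during 15 days. The age of the rats is not given in the sources used here. Whether the libraries of a group stem from separate animals is not in the labels. The tests therefore rest on the spread between libraries, part of which may be technical.

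Mammalian mitochondrial DNA is a compact circle whose strands, called heavy and light, are both transcribed into long precursor RNAs. Transfer RNA genes lie between most of the other genes, and RNase P and the enzyme ELAC2 cut the precursors at their ends, which frees the messenger and ribosomal RNAs as well as the transfer RNAs. The light-strand genes are these 8 transfer RNA genes and Nd6, a subunit of respiratory complex I. Mature mitochondrial transfer RNAs receive the bases CCA at their 3′ end and are not polyadenylated like most mitochondrial messengers, so poly(A) selection is not designed to keep them. Each count below is therefore of reads that came through a selection for other RNA, and whether they came from mature transfer RNAs, precursors or neighbouring transcripts was not tested. In a piece of tissue, fewer cells of a type and less RNA per cell cannot be told apart.

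Each gene in the files carries an Ensembl ID and a position, here on the Rnor_6.0 build. Members are named by the order of their positions, as chosen for this comparison, and the other mitochondrial genes by the gene order that mammalian mitochondrial DNA shares. In that order tRNA-Gln (ENSRNOG00000033545) lay from 3761 to 3831. It overlapped the plus-strand tRNA-Ile by 3 bases, and 3 bases separated it from the plus-strand tRNA-Met. A block of 4 members followed: tRNA-Ala (ENSRNOG00000033932) from 5010 to 5078, tRNA-Asn (ENSRNOG00000032609) from 5081 to 5152, tRNA-Cys (ENSRNOG00000031333) from 5185 to 5252 and tRNA-Tyr (ENSRNOG00000029954) from 5256 to 5321. Between tRNA-Asn and tRNA-Cys lay 32 bases with no annotated gene, the place where mammalian mitochondrial DNA has its origin of light-strand replication. The plus-strand tRNA-Trp ended 1 base before tRNA-Ala, and Cox1, a subunit of cytochrome c oxidase, began 1 base after tRNA-Tyr.

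Beyond Cox1, tRNA-Ser(UCN) (ENSRNOG00000032882) lay from 6865 to 6933, overlapped the end of Cox1 by 3 bases and stood 3 bases from the plus-strand tRNA-Asp. tRNA-Glu (ENSRNOG00000032997) lay from 14062 to 14130, directly beside Nd6 on the same strand and 5 bases from the plus-strand Cytb, the cytochrome b gene. tRNA-Pro (ENSRNOG00000029145) lay from 15348 to 15415, 1 base from the plus-strand tRNA-Thr. It was the last mitochondrial gene in the files, and the control region of the molecule lies beyond it in mammals. All 8 were 66 to 72 bases long, so length differs little among them.

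Counts per library ranged from 21754379 to 32569760, and all mitochondrial genes together took 14.8% ± 1.54 of them in controls and 11.6% ± 2.65 in Mn-exposed libraries (SD, n = 3 each). The groups' mitochondrial shares did not overlap, and the Mn-exposed 14 library had the lowest, 8.64%. No ribosomal RNA gene was among the mitochondrial genes in the files, so these shares leave out reads from such genes. The files do not pair Ensembl IDs with symbols, and 0 of 32552 IDs matched the RefSeq table. The lists of mitochondrial tRNA processing, charging and modification genes, of mtDNA transcription and RNA decay genes, and the markers that would check the tissue, are therefore not analysed here.

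All 8 genes had counts in all 6 libraries, at levels that differed by over 100-fold between genes. tRNA-Pro had the most, with 2036, 2774 and 2680 counts in control 1, 2 and 4, against 1628, 1303 and 2102 in Mn-exposed 13, 14 and 17. tRNA-Tyr had the fewest, with 9, 8 and 6 counts in the controls and 8, 8 and 7 in the Mn-exposed libraries. Every tRNA-Tyr value was under 10 counts. In an edgeR fit with no filter on low counts, the 95% interval of its log2 fold change ran from -1.14 to 1.09.

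tRNA-Ser(UCN), which reads the UCN family of serine codons, had 792, 730 and 1426 counts in control 1, 2 and 4, against 620, 679 and 663 in Mn-exposed 13, 14 and 17. tRNA-Asn had 671, 674 and 1201 counts in the controls and 554, 423 and 784 in the Mn-exposed libraries. tRNA-Cys, its neighbour across the unannotated 32 bases, had 274, 249 and 473 in the controls and 248, 196 and 286 in the Mn-exposed libraries. In these 3 genes control 4 stood highest of the 6 libraries. Before scaling, control 1 and 2 lay within the range of the Mn-exposed libraries for tRNA-Asn and tRNA-Cys and above it for tRNA-Ser(UCN).

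tRNA-Glu had 436, 500 and 553 counts in control 1, 2 and 4, against 461, 425 and 471 in Mn-exposed 13, 14 and 17. tRNA-Gln had 109, 156 and 91 in the controls and 52, 32 and 65 in the Mn-exposed libraries. tRNA-Ala had 35, 36 and 63 in the controls and 28, 23 and 38 in the Mn-exposed libraries. The tRNA-Gln groups did not overlap even before scaling, while those of tRNA-Glu and tRNA-Ala did.

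Levels were compared between genes as CPM per kilobase. CPM is a count scaled to the size of its library, here after TMM scaling (an edgeR correction for the make-up of each library), and was divided by gene length. In controls the order was tRNA-Pro at 1446 ± 179, tRNA-Ser(UCN) at 578 ± 265, tRNA-Asn at 476 ± 202, tRNA-Glu at 287 ± 53.7, tRNA-Cys at 198 ± 87.2, tRNA-Gln at 65 ± 10.4, tRNA-Ala at 26.1 ± 10.9 and tRNA-Tyr at 4.68 ± 1.54 CPM per kilobase (SD, n = 3). The Mn-exposed libraries had the same order of means, from 956 ± 196 for tRNA-Pro to 4.58 ± 0.977 for tRNA-Tyr. Neighbours in this order overlapped in controls between tRNA-Ser(UCN) and tRNA-Asn, between tRNA-Asn and tRNA-Glu, and between tRNA-Glu and tRNA-Cys. tRNA-Ser(UCN) was above tRNA-Asn in 5 of 6 libraries and tRNA-Asn above tRNA-Glu in 5 of 6. The other neighbours in the order kept it in 6 of 6 libraries. In the Mn-exposed libraries tRNA-Glu and tRNA-Cys did not overlap, and tRNA-Gln and tRNA-Ala did. tRNA-Pro alone held 47.4% ± 6.44 of the members' counts in controls and 45% ± 2.72 in Mn-exposed libraries.

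**Figure D1:**
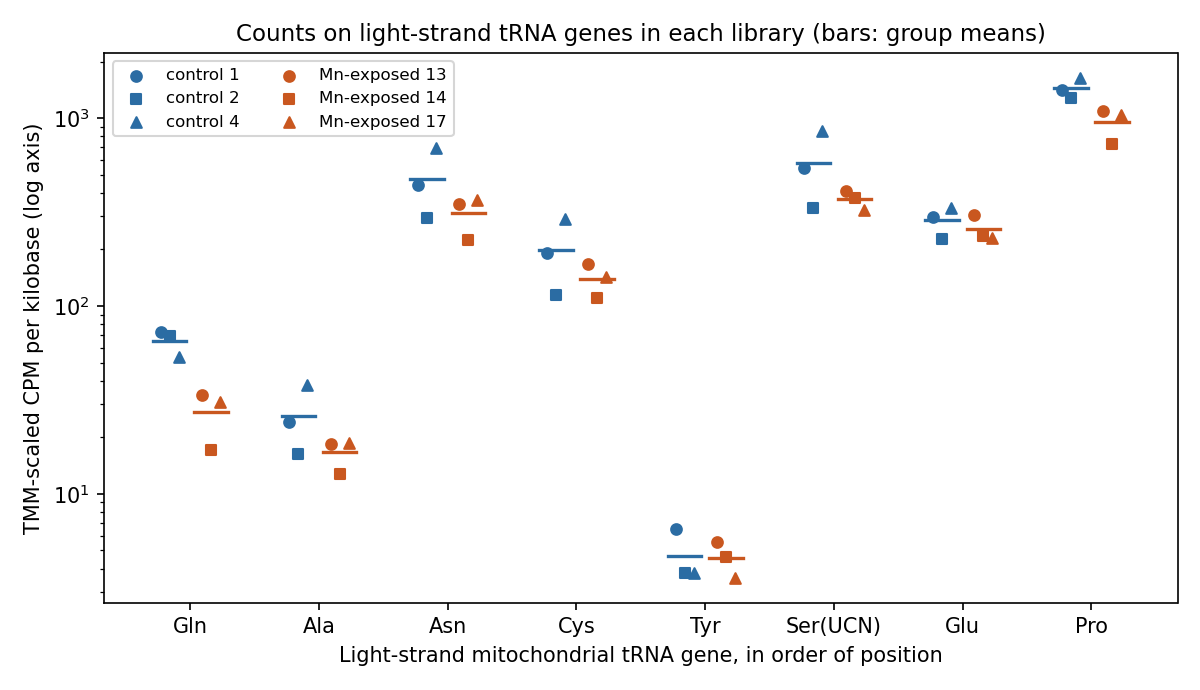
CPM per kilobase after TMM scaling (log axis) of each light-strand tRNA gene in each library, with controls in blue, Mn-exposed libraries in orange, a symbol for each library and bars for the group means. Control means run from 4.68 for tRNA-Tyr to 1446 for tRNA-Pro, and the groups of points stand apart for tRNA-Gln and tRNA-Pro.

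Measured against the messenger genes beside them, the residual counts were small. Summed over the 8 genes, counts per base were 2.88% ± 0.833 of those of the 13 longer mitochondrial genes in controls and 2.69% ± 0.235 in Mn-exposed libraries. Against the mean counts per base of the nearest longer gene on each side, tRNA-Pro stood highest, at 10.4% ± 2.01 in controls and 9.06% ± 0.553 in Mn-exposed libraries, with Cytb as its only such neighbour. tRNA-Glu, between Nd6 and Cytb, stood at 2.95% ± 0.595 and 3.57% ± 0.746. tRNA-Ser(UCN), between Cox1 and Cox2, stood at 2.55% ± 1.09 and 2.47% ± 0.67. Of the block between Nd2 and Cox1, tRNA-Asn stood at 2.46% ± 1.11 and 2.26% ± 0.291 and tRNA-Tyr at 0.0238% ± 0.00563 and 0.034% ± 0.0103 of the 2 messengers' counts per base. Members of 1 block, between the same messengers, thus stood at very different levels.

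Adjacent transfer RNA genes also differed. In controls tRNA-Asn had 18.2 ± 0.225 times the counts per base of tRNA-Ala, 2 bases away on the same strand. In Mn-exposed libraries it had 18.8 ± 1.08 times, and the ratio ranged from 17.6 to 19.8 over the 6 libraries. tRNA-Ala had 23 to 63 counts per library, so each ratio carries counting error that was not estimated for it. tRNA-Asn had 2.42 ± 0.124 times the counts per base of tRNA-Cys in controls and 2.25 ± 0.299 times in Mn-exposed libraries. tRNA-Pro had 69.5 to 152 times the counts per base of tRNA-Thr, its plus-strand neighbour, in controls and 100.3 to 183 times in Mn-exposed libraries. These groups overlapped, and tRNA-Thr had only 7 to 38 counts per library. These pairs were singled out after their values were seen, and they have no test. Whether the library kit marked strand is not in the labels, and the strand setting of the counting is not given in the sources used here, so reads from the opposite strand cannot be told apart from those of a member.

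Levels were also set beside the surroundings of each gene. A side was called open where 30 or more bases beside a gene held no annotated gene or where no further gene followed, a division made after the values were seen. The 3 members with an open side were tRNA-Asn, tRNA-Cys and tRNA-Pro, with 198 to 1446 CPM per kilobase in controls. The 5 without were tRNA-Gln, tRNA-Ala, tRNA-Tyr, tRNA-Ser(UCN) and tRNA-Glu, with 4.68 to 578 CPM per kilobase. Among the 14 plus-strand transfer RNA genes the 3 with an open side had 121 to 503 and the 11 without had 0 to 274 CPM per kilobase. These 3, tRNA-Phe, tRNA-Val and tRNA-Leu(UUR), lay beside stretches of 958 and 1571 bases with no gene in the files. The files list no mitochondrial ribosomal RNA gene, so an open side need not be free of transcribed sequence. tRNA-Ser(UCN) and tRNA-Glu thus had more than tRNA-Cys without an open side. A read that reaches 2 genes can be counted for both, for 1 or for neither. Which rule the counting used is not given in the sources used here, and its part in these levels was not tested.

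**Figure D2:**
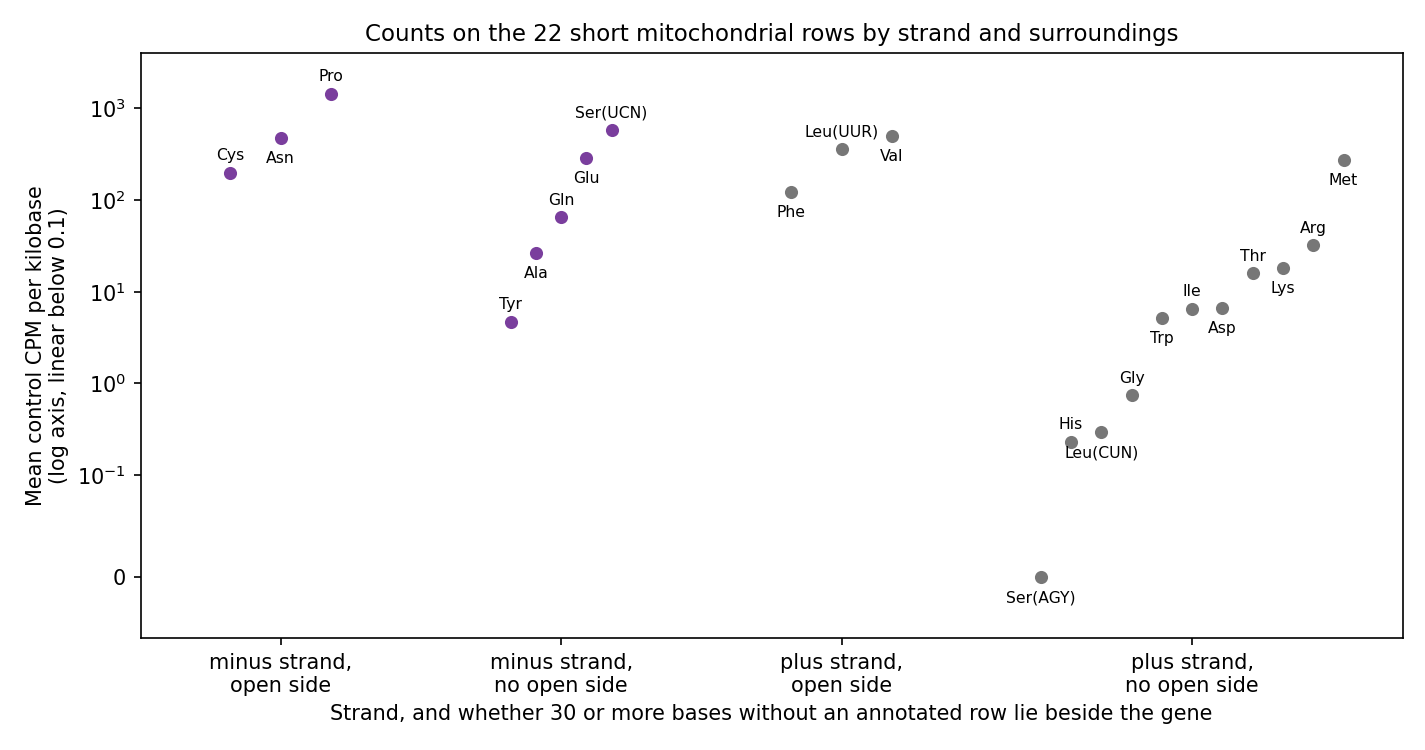
Mean control CPM per kilobase after TMM scaling (log axis, linear below 0.1) of the 22 mitochondrial tRNA genes, divided by strand and by whether 30 or more bases without an annotated gene, or the end of the annotation, lie beside the gene, with 1 point per gene. The 3 minus-strand genes with an open side lie between 198 and 1446, and the 11 plus-strand genes without one between 0 and 274.

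Between Mn-exposed and control libraries, the counts on these genes were lower in mean but no member passed the test across all genes. Of the 8, 7 passed the filter on low counts and entered edgeR's quasi-likelihood test with 15252 genes in all, and tRNA-Tyr did not. With Benjamini-Hochberg adjustment over all genes, 0 of 7 members passed 0.05, as did 0 of 15252 genes (0%), and the members' adjusted p ran from 0.663 to 0.819. At an unadjusted p under 0.05, 2 of 7 were lower in Mn-exposed libraries, where 3.21% of all genes were (489 genes). All 7 log2 fold changes were below 0, against 47.4% of all genes tested. So were those of 7 of 8 plus-strand transfer RNA genes and 13 of 13 longer mitochondrial genes, so this was not particular to the members. With mitochondrial counts as library size, 6 of 7 members were below 0, against 6.7% of all genes. That scaling moved the median of all genes to 0.52 (log2), so the 6.7% is low through the scaling itself. On that scale 3 of 8 plus-strand transfer RNA genes and 4 of 13 longer mitochondrial genes were below 0. In a fit with no filter on low counts, which held all 8 members, their median log2 fold change was -0.60, against 0.01 for the 22862 genes in that fit.

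tRNA-Gln, which serves glutamine codons, showed the largest difference among the members. It stood at 5.17, 4.90 and 3.78 CPM in control 1, 2 and 4, and at 2.37, 1.22 and 2.20 CPM in Mn-exposed 13, 14 and 17. All 3 Mn-exposed libraries lay below all 3 controls. The means were 4.62 ± 0.736 and 1.93 ± 0.62 CPM (SD, n = 3 each), which edgeR fitted as a log2 fold change of -1.26 (standard error 0.30), with a 95% interval from -1.97 to -0.55. The unadjusted edgeR p was 0.00405 and the adjusted p 0.663. DESeq2, another count test, called 37 genes as lower, 0.162% of 22856, and gave an adjusted p to only 17656 genes. tRNA-Gln was the only member it called (adjusted p = 0.0285). That call was lost without control 1, control 2, control 4, Mn-exposed 14 or Mn-exposed 17, with DESeq2 adjusted p from 0.115 to 0.35. It was kept without Mn-exposed 13 (adjusted p = 0.00631).

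tRNA-Pro, which lies at the edge of the control region, was the other member whose groups did not overlap. It stood at 96.5, 87.2 and 111 CPM in control 1, 2 and 4, and at 74.3, 49.7 and 71.0 CPM in Mn-exposed 13, 14 and 17. The means were 98.3 ± 12.2 and 65 ± 13.3 CPM (SD, n = 3 each), and the log2 fold change was -0.60 (standard error 0.18), with a 95% interval from -1.02 to -0.17. The unadjusted edgeR p was 0.0129 and the adjusted p 0.663, and DESeq2 gave an adjusted p of 0.244. With the ID number in the labels as a replicate block, an alternative chosen after the data were seen, DESeq2 called both tRNA-Pro (adjusted p = 0.0235) and tRNA-Gln (adjusted p = 0.0482). Thus 2 of 8 members had all Mn-exposed values below all control values, where 5.48% of the genes tested had. The same held for 4 of 14 plus-strand transfer RNA genes and 6 of 13 longer mitochondrial genes, so it was not particular to the members.

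Among the block around the origin of light-strand replication and tRNA-Ser(UCN), the groups overlapped. tRNA-Asn stood at 31.8, 21.2 and 49.9 CPM in control 1, 2 and 4, and at 25.3, 16.1 and 26.5 CPM in Mn-exposed 13, 14 and 17, a log2 fold change of -0.60 with an interval from -1.38 to 0.18. tRNA-Ser(UCN) stood at 37.5, 22.9 and 59.2 CPM in the controls and at 28.3, 25.9 and 22.4 CPM in the Mn-exposed libraries, a log2 fold change of -0.64 with an interval from -1.39 to 0.11. The estimates of tRNA-Ala (-0.64, from -1.54 to 0.25) and tRNA-Cys (-0.51, from -1.30 to 0.29) were similar in size. Between libraries with the same ID number, the Mn-exposed value was the lower in 3 of 3 pairs for tRNA-Asn, tRNA-Ala and tRNA-Cys, as for tRNA-Gln and tRNA-Pro, and in 2 of 3 for tRNA-Ser(UCN). It was the lower in all 3 pairs for 18.3% of the genes tested. All 4 estimates rested in part on control 4. Without that library they were -0.23 for tRNA-Asn, -0.24 for tRNA-Ser(UCN), -0.27 for tRNA-Ala and -0.13 for tRNA-Cys.

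tRNA-Glu had the smallest estimate of the 7. It stood at 20.7, 15.7 and 23.0 CPM in control 1, 2 and 4, and at 21.0, 16.2 and 15.9 CPM in Mn-exposed 13, 14 and 17. The log2 fold change was -0.16 with an interval from -0.60 to 0.28, and the groups overlapped. Nd6, the messenger gene beside it on the same strand, had a log2 fold change of -0.37 (interval from -0.88 to 0.15), and tRNA-Glu had 5.39% ± 1.21 of the counts per base of Nd6 in controls and 6.35% ± 1.26 in Mn-exposed libraries. The mean of tRNA-Tyr was 0.309 ± 0.102 CPM in the control group and 0.302 ± 0.0645 CPM in the Mn-exposed group.

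**Figure D3:**
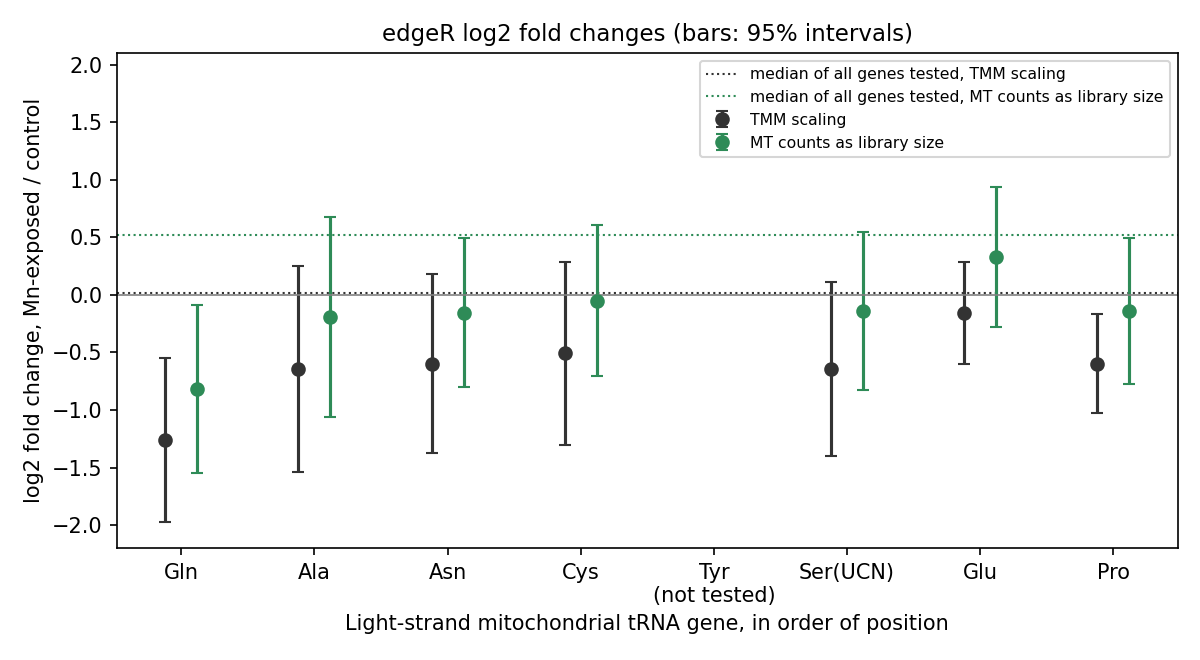
log2 fold change of Mn-exposed over control for the 7 light-strand tRNA genes tested by edgeR, with 95% intervals, under TMM scaling (black) and with summed mitochondrial counts as library size (green), and dotted lines at the median of all genes. tRNA-Gln lies at -1.26 and -0.82, and the black intervals of tRNA-Gln and tRNA-Pro lie below 0.

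Since all mitochondrial genes took a smaller share of counts in Mn-exposed libraries, the members were also measured within mitochondrial counts. Together they took 120, 113 and 186 of every 100000 mitochondrial counts in control 1, 2 and 4, against 120, 143 and 128 in Mn-exposed 13, 14 and 17. The means were 139 ± 40.1 and 130 ± 11.3 (SD, n = 3 each), and the groups overlapped. The 95% exact binomial interval (Clopper-Pearson) ran from 181 to 190.1 in control 4, above those of the other 5 libraries. The intervals of control 1 (116 to 123.2) and Mn-exposed 13 (116.4 to 124.3) overlapped. Without control 4 the difference between the group means was 13.9 per 100000 in the other direction, against -9.16 with it.

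In an edgeR fit with the summed mitochondrial counts as library size, the median over all genes moved from 0.02 to 0.52 (log2), and 178 genes (1.17%) passed 0.05 after adjustment, none of them a member. Relative to mitochondrial counts tRNA-Glu stood at 0.33 (interval from -0.28 to 0.93), tRNA-Cys at -0.05, tRNA-Pro at -0.14 (from -0.78 to 0.49), tRNA-Ser(UCN) at -0.14, tRNA-Asn at -0.15 and tRNA-Ala at -0.19. tRNA-Gln stood at -0.82 with an interval from -1.55 to -0.09, an unadjusted p of 0.0284 and an adjusted p of 0.197. On this scale the sign of tRNA-Glu was the opposite of that under TMM scaling.

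Of the 8 members, 1, tRNA-Gln, had a share of mitochondrial counts that did not overlap between the groups and was lower in Mn-exposed libraries, where 0.341% of all genes tested were. Division by mitochondrial counts moves most genes up in Mn-exposed libraries, so the 0.341% is low through the scale itself. Of the 14 plus-strand transfer RNA genes 2 were, tRNA-Phe and tRNA-Gly, and of the 13 longer mitochondrial genes 0 were. tRNA-Phe took 4.28 to 6.63 of every 100000 mitochondrial counts in controls and 2.95 to 4.21 in Mn-exposed libraries, and its log2 fold change under TMM scaling was -1.01 (edgeR unadjusted p = 0.0101, adjusted p = 0.663). tRNA-Gly had 0 to 2 counts per library. tRNA-Gln took 2.99, 3.43 and 2.60 of every 100000 mitochondrial counts in control 1, 2 and 4, against 1.74, 1.48 and 1.88 in Mn-exposed 13, 14 and 17. The nearest libraries were control 4 and Mn-exposed 17, and their 95% exact binomial intervals, from 2.09 to 3.19 and from 1.45 to 2.39, overlapped. Per base, tRNA-Gln had 0.528% ± 0.0333 of the mean of Nd1 and Nd2, the messenger genes on either side, in controls and 0.286% ± 0.0303 in Mn-exposed libraries, with no overlap. tRNA-Met, its plus-strand neighbour at 3 bases, had 3.36 to 5.07 times the counts per base of tRNA-Gln in controls and 5.35 to 9.84 times in Mn-exposed libraries. Against tRNA-Ile, the gene it overlaps, tRNA-Gln had 4.91 to 21.7 times the counts per base in controls and 3.11 to 7.22 times in Mn-exposed libraries, and the groups overlapped. These ratios use the same tRNA-Gln counts and are not independent of the fold change.

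**Figure D4:**
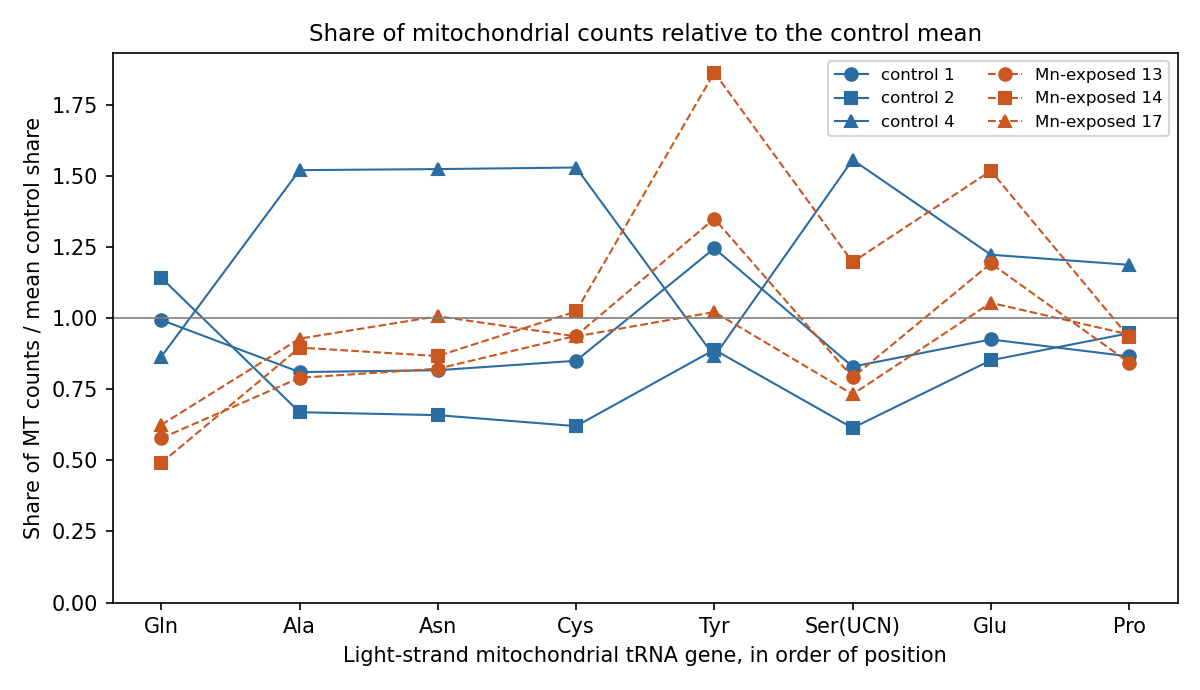
Share of mitochondrial counts of each light-strand tRNA gene in each library, divided by the mean share in controls, with controls as solid blue lines and Mn-exposed libraries as dashed orange lines. The 3 Mn-exposed libraries lie below all controls at tRNA-Gln. Control 4 stands above the other libraries at tRNA-Ala, tRNA-Asn, tRNA-Cys and tRNA-Ser(UCN) and, by a smaller margin, at tRNA-Pro.

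Control 4 differed from the other controls in 4 genes by nearly the same factor. Its share of mitochondrial counts was 2.05 times the mean of control 1 and 2 for tRNA-Ala, 2.07 times for tRNA-Asn, 2.08 times for tRNA-Cys and 2.16 times for tRNA-Ser(UCN). The factor was 1.38 for tRNA-Glu, 1.31 for tRNA-Pro, 0.81 for tRNA-Gln and 0.811 for tRNA-Tyr, the last on 6 counts. The members thus did not move as a unit in this library. Nd6 stood at 0.967 times and the 2 messengers that flank the block of 4, Nd2 and Cox1, at 0.881 and 1.08 times. No explanation was tested.

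Against the other transfer RNA genes of the molecule, the members had more counts in sum, of which tRNA-Pro held 47.4% ± 6.44 in controls. Without tRNA-Pro the members took 51.8 of every 100000 mitochondrial counts in control 2, below the 64.4 of the plus-strand genes. In each other library they still took more than the plus-strand genes. The 8 members had 2.26 ± 0.544 times the summed counts of the 14 plus-strand transfer RNA genes in controls and 2.39 ± 0.431 times in Mn-exposed libraries, and the groups overlapped (1.75 to 2.84 and 1.96 to 2.82). The plus-strand genes included tRNA-Ser(AGY), with 0 counts in all 6 libraries, which allows a share of up to 0.0148 of every 100000 mitochondrial counts (3 counts over all libraries). The edgeR test held 8 plus-strand genes. Their median log2 fold change was -0.42, and 7 of these were below 0. The 13 longer genes had a median of -0.40 and the 7 members tested one of -0.60. Without control 4 the order turned, with medians of -0.43 for the plus-strand genes, -0.49 for the longer genes and -0.24 for the members. With mitochondrial counts as library size these medians were 0.02, 0.05 and -0.14, so the sign of the first and second sets turned. The difference between these sets was not tested.

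Over the 6 libraries, the mitochondrial genes most like the summed members in log2 CPM (prior count 2) were tRNA-Thr, with a Pearson r of 0.976, Cox2 with 0.898 and tRNA-Phe with 0.888. tRNA-Thr had only 7 to 38 counts per library. The 27 other mitochondrial genes had a median r of 0.701. They included genes at or near 0 counts, such as tRNA-Ser(AGY) with 0 in all 6 libraries. For such genes the prior count makes r follow library size. Outside the mitochondrial chromosome, the rule named 3 genes, among them ENSRNOG00000014574 with r = 0.995 and ENSRNOG00000043387 with r = 0.992. The highest of 15224 such genes over 6 libraries is a description only, their median r was -0.06, and all points share libraries and scaling.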

How the data were processed

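Poly(A)-selected striatal RNA was measured in 3 control and 3 Mn-exposed libraries. The authors deposited raw counts, whole reads for each Ensembl gene with no normalisation, and per the file headers each gene has its position, strand and length. Per the submitters' processing notes, which give no order or role, the tools were STAR 2.5.2b, bcl2fastq 2.17 and DESeq2, and the build Rnor_6.0. The counting tool, strand setting and handling of multi-gene reads were not given in the sources used here. Counts of short genes beside others can move with these settings. Counts in the series-wide table differed from those of single libraries in 0 cells.

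Members and lists were chosen with earlier results of these data known. The named genes were all 8 members, their neighbours, Nd6 and the genes most like their sum. Counts were filtered with filterByExpr (15252 genes), TMM-scaled and fitted by robust quasi-likelihood without a block (edgeR 4.0.16, R 4.3.3), with Benjamini-Hochberg adjustment over all genes at 0.05. A standard error is the estimate over the square root of its F. The steps were tested on simulated counts. Sums, shares and ratios of members have no test. Intervals and the limit for a count of 0 cover counting error only. Alternatives were other scalings and filters, DESeq2 1.42.0, limma-voom (limma 3.58.1), the replicate block and each library left out; DESeq2 refits with the block or without a library were added after the data were seen. Library pairs differed by 14.9 to 165 in chi-square per degree of freedom, and all 6 were kept.

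The ID labels number the libraries 1 to 3 in each group. In same-numbered pairs, each library's departure from its group mean gave correlations across genes of 0.417, 0.109 and 0.227, all above the 0.1 set for treating numbers as pairs. For Mn-exposed 17 the correlation was higher with control 2 (0.274), and for Mn-exposed 14 with control 4 (0.145), than with the library of its own number, so the numbers alone do not single out the pairs.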

Additional observations from a re-analysis of the deposited data

How the results depend on the processing

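With edgeR and limma-voom, 0 members were called under every alternative run, including a threshold of 0.1 and 1 replicate left out (0 to 0). DESeq2 called 1 (tRNA-Gln, log2 fold change -1.27), and, in fits added after seeing the data, 2 with the replicate block (tRNA-Gln and tRNA-Pro), 1 without Mn-exposed 13 and 0 without any other library. The replicate block changed no other call: with edgeR it gave 0. Of 162 refits of single members, 152 kept direction and side of the threshold, 3 of tRNA-Tyr kept direction where DESeq2 gave no adjusted p, 4 passed it with DESeq2 and 3 turned direction. tRNA-Glu stood at 0.33 with mitochondrial counts as library size, where the median of all genes moves up, and tRNA-Tyr, -0.02 with no filter, at 0.24 and 0.12 with DESeq2 without control 1 and without Mn-exposed 17. The log2 ratio of summed members, -0.56, ran from -0.73 to -0.36 with 1 replicate left out. The difference in their share of mitochondrial counts ran from -22.4 to 13.9 per 100000, and that in the minus-to-plus-strand ratio (0.125) from -0.13 to 0.411 and -0.0708 without tRNA-Val. The median percent of the nearest genes' counts per base differed by -10.3 points, from -12.6 to -7.4 with 1 replicate left out, and by -0.189 against the nearest longer genes, which have more counts per base. Against the nearest genes, this median lay midway between tRNA-Ala (10.9% in controls, 10.5% in Mn-exposed libraries) and tRNA-Gln (47.2% and 26.9%). Its difference thus followed tRNA-Gln, and the means of tRNA-Cys, tRNA-Tyr, tRNA-Glu and tRNA-Pro were higher in Mn-exposed libraries. Depth limits tRNA-Tyr and tRNA-Ala.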

Other observations

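Among the plus-strand transfer RNA genes, control 4 stood above the other controls in some and not in others. Relative to the mean of control 1 and 2, the share of mitochondrial counts in control 4 was 2.75 times for tRNA-Ile, 2.64 for tRNA-Asp, 2.22 for tRNA-Lys and 1.42 for tRNA-Phe. tRNA-Thr had 38 counts in control 4, against 22 in control 1 and 18 in control 2. The factor was 0.997 for tRNA-Val, 1.07 for tRNA-Met, 1.08 for tRNA-Leu(UUR), 1.04 for tRNA-Trp, 1.04 for tRNA-Arg and 0.8 for tRNA-Gly. tRNA-His and tRNA-Leu(CUN) had 0 counts in control 4. tRNA-Ile and tRNA-Asp had 7 to 18 counts per library, and the tRNA-Asp share was higher in Mn-exposed 13 (0.568 per 100000) than in control 4 (0.514).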
